A study of Caenorhabditis elegans with 6 samples.

Results

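The proteasome is the large protease complex that degrades proteins tagged with ubiquitin. Its core particle is a barrel of stacked rings, in which the alpha subunits (pas- genes) form the gated outer rings and the beta subunits (pbs- genes) form the inner rings that hold the proteolytic sites. The regulatory particle caps the barrel. Its ATPases (rpt- genes) unfold substrates and thread them into the core, while its other subunits (rpn- genes) bind ubiquitin, remove it and hold the cap together. The subunits assemble into a complex of fixed makeup, and in *Caenorhabditis elegans* the transcription factor SKN-1 is known to raise their transcription when the proteasome is impaired.

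Genes were taken as members where the sequence name of an array probe mapped to a symbol starting with pas-, pbs-, rpt- or rpn-. This gave 33 genes on 35 probes, among 18865 genes on 22490 gene probes of the array. They divided into 14 core genes (7 pas- and 7 pbs-) and 19 regulatory genes (6 rpt- and 13 rpn-). Of these genes 32 had 1 probe each, and rpn-2 had 3. All 33 passed the filter on dim probes, which 9947 genes of the array passed.

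The nematodes treated with chlorpyrifos (CPF), an organophosphorus pesticide that blocks acetylcholinesterase, were grown from the egg with 0.5 mg/l of it in the agar. The control nematodes were grown with its solvent, acetone. Both groups were whole worms of the wild type strain N2, fed on *Escherichia coli* OP50 at 24 °C, and pooled from several dishes. The labels give an age of 72 h and a late larval stage (L3 or L4), whereas the methods give a shorter time at this temperature. Each of 6 arrays was hybridised with RNA of a CPF sample and of a control sample. CPF was labelled with the dye Cy3 on 3 arrays (CPF in Cy3) and with the dye Cy5 on the other 3 (CPF in Cy5). In whole animals, fewer cells of a type and less RNA per cell cannot be told apart.

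Between 35.2% and 56.1% of gene probes lay above local background in Cy3, and between 38.3% and 53.4% in Cy5. CPF in Cy3 replicate 1 was the most variable array, with an SD of 0.90 over the log2 ratios of tested probes, and the other 5 arrays had SDs of 0.42 to 0.47. The proteasome genes were mostly bright. Of the 33, 32 were above background in all 12 channels, against 56.7% of all tested genes, and 0 had saturated pixels. Signs follow the labels of the scanned arrays. By the column labels of the deposited table of log ratios every sign below would turn, since each of its columns matched an array of its own replicate number but of the opposite dye orientation. The p-values and the number of calls would stay the same. Markers of body wall muscle, pharynx, intestine, cuticle, germline and oocytes were all bright enough to test in these whole worms, as were those of neurons except unc-104.

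With CPF, 1 of the 33 proteasome genes passed the test as higher and 0 as lower. Over all tested genes 3.31% were called, 0.965% higher and 2.34% lower, at an adjusted p of 0.05 (limma, Benjamini-Hochberg). The called gene was rpt-6, an ATPase of the regulatory particle. At an unadjusted p of 0.05, 3 members were higher (rpt-6, rpn-8 and pbs-4) and 0 lower, against 13.2% higher and 12.2% lower (25.4% in all) among all tested genes. By sign alone, 3 members were above 0 on 6 of 6 arrays and 0 were below 0 on 6 of 6, against 7.04% and 8.58% of all tested genes. Of the 198 member values on single arrays 120 were above 0, where 47.7% to 52.3% of all tested genes were on each array. All 6 values lay within 0.5 of 0 for 15 of the 33 members, against 32% of all tested genes. The other 32 members had adjusted p between 0.139 and 0.983. A missed threshold does not show equal levels, so the intervals of the ratios are given with them. The 95% interval included 0 for 30 genes, and for 26 genes it lay wholly between -0.5 and 0.5 on the log2 scale, that is between 0.707-fold and 1.41-fold. For the other 7 genes (rpt-6, rpn-8, pbs-4, pas-2, pas-6, rpt-4 and rpn-6.2) the upper bound lay above 0.5, and none had a lower bound under -0.5. The lowest bound of any member was -0.49, for rpt-1. The median size of the log2 ratio, regardless of sign, was 0.105 for the members and 0.184 for all tested genes, with a median SE of 0.115 and 0.124.

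**Figure D1:**
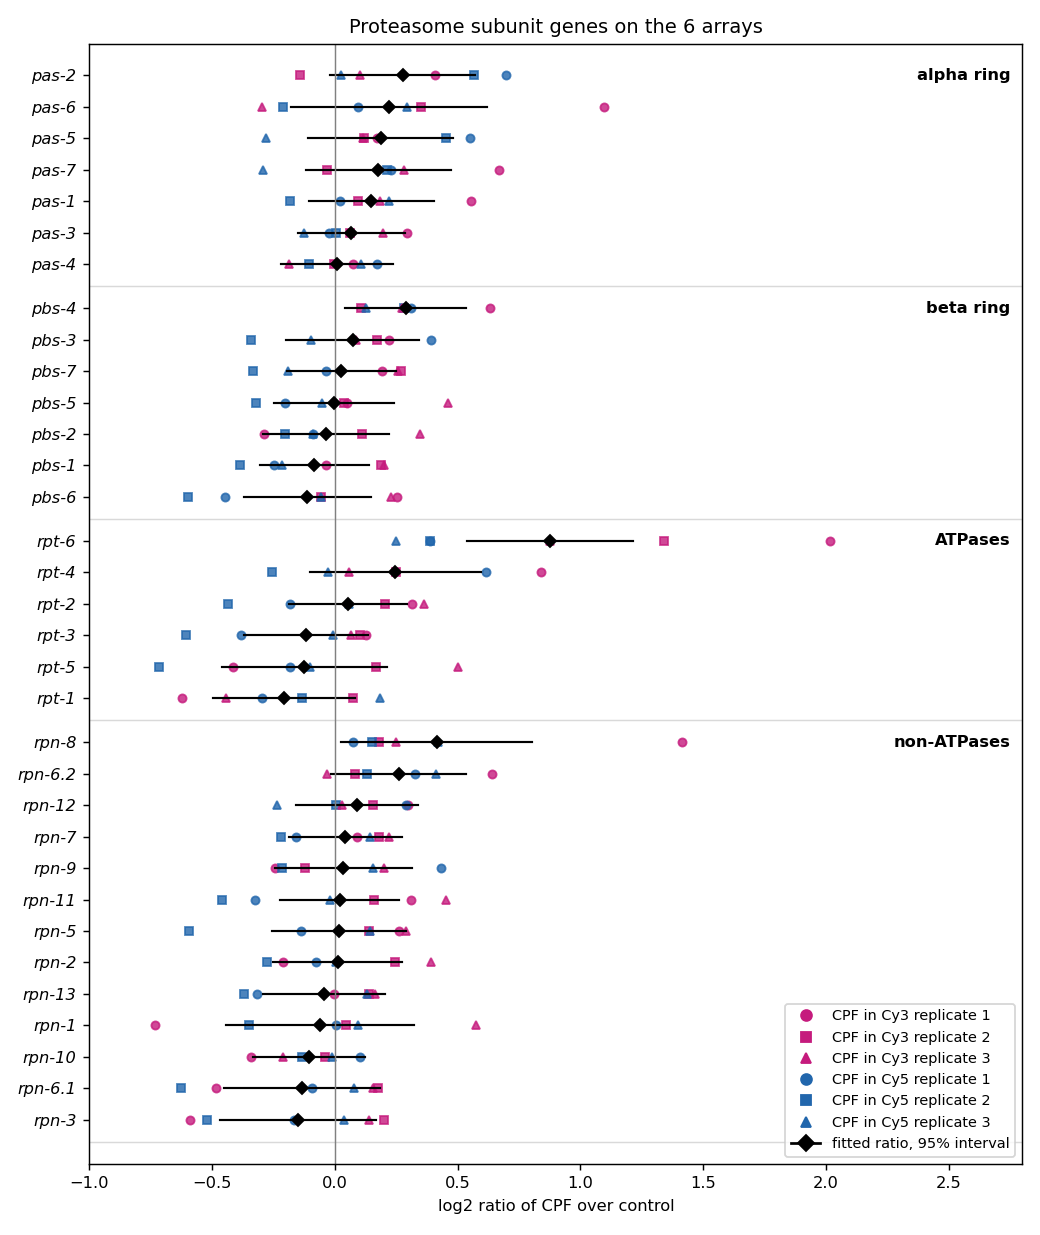
Log2 ratio of CPF over control (x axis) for the 33 proteasome genes, 1 row a gene, grouped by ring or subunit type and ordered by the fitted ratio. Coloured marks are the 6 arrays, the black diamond is the fitted ratio and the line its 95% interval. Only rpt-6, rpn-8 and pbs-4 have intervals that leave out 0, and rpt-6 reaches 2.02 on CPF in Cy3 replicate 1.

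The gene rpt-6 (Y49E10.1) was higher with CPF on all 6 arrays. Its log2 ratio was 2.02, 1.34 and 0.88 on CPF in Cy3 replicates 1, 2 and 3, and 0.39, 0.39 and 0.25 on CPF in Cy5 replicates 1, 2 and 3. The values of the CPF in Cy3 arrays thus lay above all those of the CPF in Cy5 arrays. The fitted log2 ratio was 0.88 ± 0.15 (SE, n = 6), a 1.84-fold difference with a 95% interval of 0.54 to 1.21 in log2 (limma, adjusted p = 0.0255). The orientation means were 1.41 for CPF in Cy3 and 0.34 for CPF in Cy5. The dye term, which tests this difference, was not called (adjusted p = 0.477).

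The signal behind the rpt-6 ratio was weak. The probe was the dimmest of the 35 proteasome probes, with a mean log2 brightness over both channels at the percentile 31.7 of all tested genes. It was above background in 5 of 6 CPF channels and in 3 of 6 control channels. Normalised brightness averaged 8.85 ± 0.81 in CPF channels and 7.97 ± 0.97 in control channels (log2, SD, n = 6 each). On CPF in Cy3 replicate 1, where the ratio was largest, the CPF channel was at 8.79 and the control channel, which was not above background, at 6.78. Within each array the CPF channel was the brighter, but the groups overlapped across arrays, from 7.69 to 9.84 in CPF and from 6.78 to 9.28 in control. The ratio of rpt-6 thus rests in part on channels that did not stand out from background.

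Leaving out 1 array at a time kept the call of rpt-6 in 2 of 6 fits, namely when CPF in Cy3 replicate 1 was omitted (log2 ratio 0.73, limma adjusted p = 0.00565) and when replicate 3 of that orientation was (1.01, adjusted p = 0.00711). Omitting replicate 2 of that orientation ended the call (0.89, adjusted p = 0.0827). Among the CPF in Cy5 arrays, omitting replicate 1 (0.87, adjusted p = 0.147), replicate 2 (0.87, adjusted p = 0.108) or replicate 3 (0.90, adjusted p = 0.0860) ended it as well. Where the call ended, the fitted ratio was 0.87 to 0.90, against 0.88 with all arrays. The chaperonin gene cct-5 lost its call in the same fits (limma adjusted p from 0.108 to 0.168). The loss is thus not particular to rpt-6, and the share of all tested genes called in each fit is not given here. The fitted ratio of rpt-6 stayed positive in all 6 leave-outs, as it had to, since its value was positive on every array. The call also ended with plain background subtraction (1.23, adjusted p = 0.0688), with median centring in place of loess (0.98, adjusted p = 0.129) and without the dye term (0.88, adjusted p = 0.0778). It ended as well in a single channel fit of a toxicant term (0.88, adjusted p = 1.00). The study fitted such a term with ordinary linear models and called genes at an unadjusted p of 0.01. Its own test and threshold were not applied to the single channel fit. The highest adjusted p over the alternatives was the same for every member as for rpt-6 in that fit. Loss of the call there is therefore not particular to rpt-6.

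**Figure D2:**
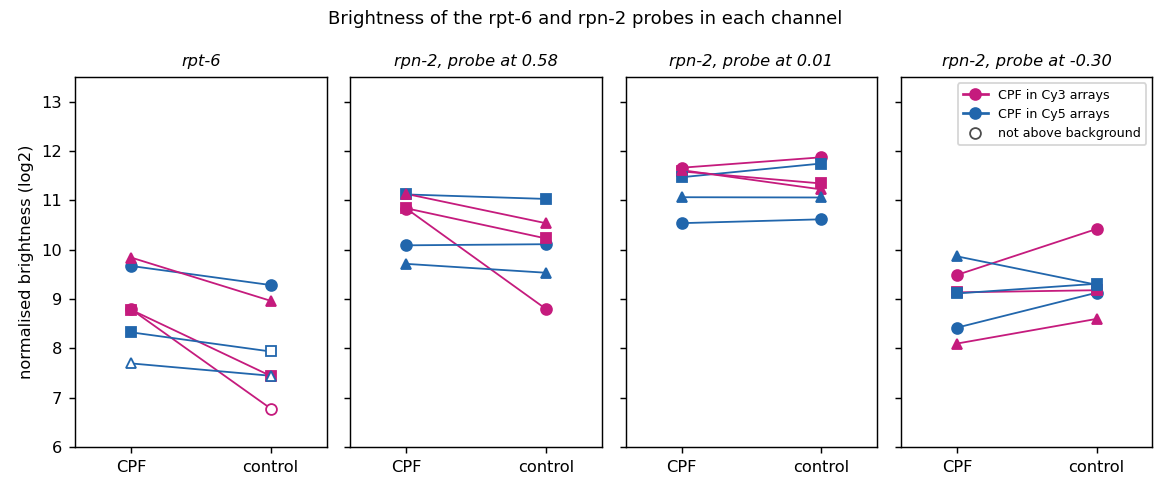
Normalised log2 brightness (y axis) of the rpt-6 probe and the 3 rpn-2 probes in the CPF and the control channel, with a line for each array, circles, squares and triangles for replicates 1, 2 and 3, and open marks for channels not above background. The CPF channel of rpt-6 is the brighter on all 6 arrays, and 3 of its 6 control channels are not above background.

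Among the other ATPases, which form a ring with RPT-6, the fitted log2 ratios ran from -0.21 to 0.25. Their median with rpt-6 included was -0.03, with 3 of 6 genes above 0. The lowest was rpt-1 (C52E4.4), which had -0.62, 0.07 and -0.44 on CPF in Cy3 replicates 1, 2 and 3 and -0.29, -0.14 and 0.19 on CPF in Cy5 replicates 1, 2 and 3. Its sign changed between arrays in both orientations. The fitted value was -0.21 ± 0.13 (SE, n = 6, limma adjusted p = 0.307). The next highest after rpt-6 was rpt-4 at 0.25 ± 0.15, and rpt-2, rpt-3 and rpt-5 lay at 0.05, -0.12 and -0.12.

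In the non-ATPase subunits of the regulatory particle, fitted log2 ratios ran from -0.15 to 0.42 with a median of 0.02, and 8 of 13 were above 0. The highest was rpn-8 (R12E2.3), whose product pairs with the deubiquitinase RPN-11. Its log2 ratio was 1.41, 0.18 and 0.25 on CPF in Cy3 replicates 1, 2 and 3, and 0.08, 0.15 and 0.42 on CPF in Cy5 replicates 1, 2 and 3. All 6 values were positive, and 1 array stood well above the other 5. The fitted value was 0.42 ± 0.17 (SE, n = 6, adjusted p = 0.162 in limma). The lowest was rpn-3 (C30C11.2), a lid subunit, which had -0.59, 0.20 and 0.14 on CPF in Cy3 replicates 1, 2 and 3 and -0.17, -0.52 and 0.04 on CPF in Cy5 replicates 1, 2 and 3. The fitted value of rpn-3 was -0.15 ± 0.14 (adjusted p = 0.488), with both signs in each orientation.

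The ubiquitin receptor genes rpn-10 and rpn-13 were at -0.10 ± 0.10 and -0.04 ± 0.11 (SE, n = 6). The deubiquitinase gene rpn-11 was at 0.02 ± 0.11, as the mean of 0.31 on CPF in Cy3 arrays and -0.27 on CPF in Cy5 arrays. The scaffold gene rpn-1, which codes for a docking site of ubiquitin shuttles, was at -0.06 ± 0.17, with a 95% interval of -0.44 to 0.32. The remaining lid genes rpn-5, rpn-7, rpn-9 and rpn-12 lay between 0.02 and 0.09. None of these passed the test (adjusted p from 0.497 to 0.935).

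The paralogues rpn-6.1 and rpn-6.2 were measured by separate probes. The gene rpn-6.1 (F57B9.10), which in *C. elegans* is known to extend life under mild heat stress when overexpressed, was at -0.13 ± 0.14 (SE, n = 6, limma adjusted p = 0.540). Its paralogue rpn-6.2 (F59B2.5) was at 0.26 ± 0.12 (adjusted p = 0.200) and positive on 5 of 6 arrays, with the third dimmest of the 35 probes. The values of rpn-6.1 ran from -0.63 to 0.18 and those of rpn-6.2 from -0.03 to 0.64, so that the ranges overlapped. Both probes were read on the same arrays, and their difference by array was not tested.

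The 3 probes of rpn-2 (C23G10.4), the other large scaffold subunit, were fitted separately. The brightest probe, named for isoform b, stood for the gene and lay at 0.01 ± 0.11 (SE, n = 6). A second probe named for isoform b lay at 0.58 ± 0.19 (adjusted p = 0.110) and the probe named for isoform a at -0.30 ± 0.18 (adjusted p = 0.30). The ratios of the second isoform b probe were 2.04, 0.61 and 0.59 on CPF in Cy3 replicates 1, 2 and 3, and -0.02, 0.09 and 0.18 on CPF in Cy5 replicates 1, 2 and 3. They lay above those of the brightest probe on 6 of 6 arrays, by 0.57 ± 0.83 on average (SD, n = 6, exact 2-sided sign-flip permutation test, p = 0.0312, the smallest that 6 arrays allow). Adjusted over the 3 pairs of probes this p was 0.0938, and the other pairs had adjusted p of 0.141 and 0.219 in the same exact test. With 6 arrays and 3 pairs, 1 differing pair alone cannot reach an adjusted p below 0.0938 in this test. It therefore cannot decide whether the isoform b probes differ. The difference between the isoform b probes was 2.25 on CPF in Cy3 replicate 1, the largest of the 6 arrays.

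In the core particle, fitted log2 ratios ran from 0.01 to 0.28 in the alpha ring and from -0.11 to 0.29 in the beta ring. Of 14 core genes 0 passed the test, and 10 lay above 0, against 50.9% of all tested genes. All 7 alpha genes were above 0 with a median of 0.18, against 3 of 7 beta genes with a median of -0.00 (rounded). With other background corrections, scalings, fits and sets of arrays the number of alpha genes above 0 was 6 or 7, and the number of beta genes above 0 ran from 1 to 7. The rings were not tested against each other.

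The highest alpha gene was pas-2 (D1054.2). It had 0.41, -0.14 and 0.10 on CPF in Cy3 replicates 1, 2 and 3, and 0.70, 0.57 and 0.03 on CPF in Cy5 replicates 1, 2 and 3, which gave a fitted log2 ratio of 0.28 ± 0.13 (SE, n = 6, limma adjusted p = 0.202). Here 5 of 6 values were positive and the highest came from CPF in Cy5 arrays. The lowest was pas-4 (C36B1.4), with 0.08, -0.00 and -0.19 on CPF in Cy3 replicates 1, 2 and 3 and 0.17, -0.11 and 0.11 on CPF in Cy5 replicates 1, 2 and 3. No array moved pas-4 by more than 0.19, and its fitted log2 ratio was 0.01 ± 0.10 (95% interval -0.22 to 0.24).

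The highest beta gene, pbs-4 (T20F5.2), which codes for a subunit without proteolytic activity, was positive on 6 of 6 arrays, and its control and CPF channels were all above background. It had 0.63, 0.11 and 0.27 on CPF in Cy3 replicates 1, 2 and 3, and 0.31, 0.28 and 0.13 on CPF in Cy5 replicates 1, 2 and 3, with a fitted log2 ratio of 0.29 ± 0.11 (SE, n = 6, limma adjusted p = 0.139). The values of the orientations overlapped. The lowest, pbs-6 (C02F5.9), had 0.26, -0.05 and 0.23 on CPF in Cy3 replicates 1, 2 and 3, and -0.45, -0.60 and -0.06 on CPF in Cy5 replicates 1, 2 and 3. It was lower in the CPF in Cy5 arrays, and its fitted log2 ratio was -0.11 ± 0.11 (adjusted p = 0.522). The genes of the catalytic subunits pbs-1, pbs-2 and pbs-5 lay at -0.08 ± 0.10, -0.04 ± 0.11 and -0.00 ± 0.11 (SE, n = 6), with 95% intervals that ran at most from -0.30 to 0.24.

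**Figure D3:**
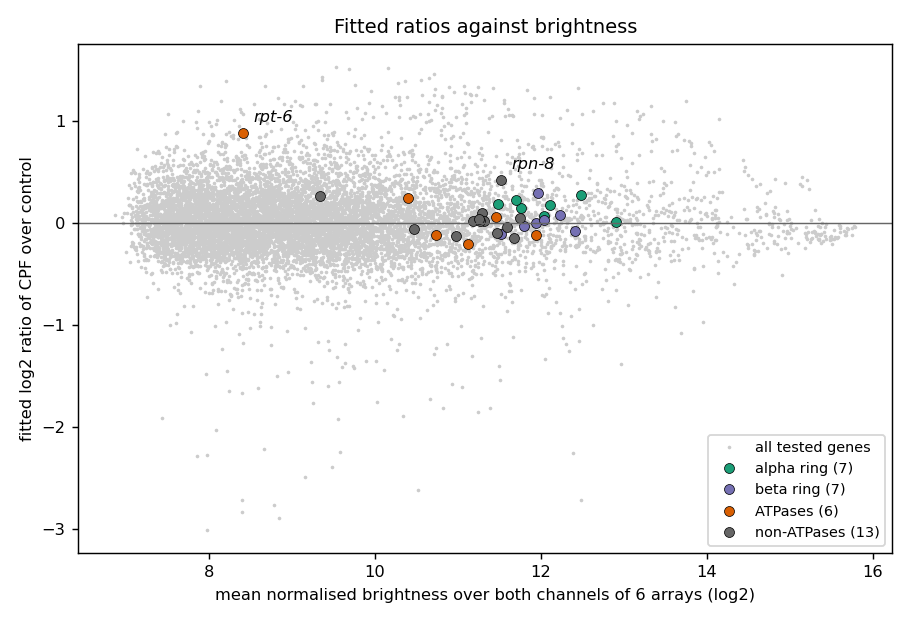
Fitted log2 ratio of CPF over control (y axis) against mean normalised log2 brightness (x axis) for all tested genes in grey and the 33 proteasome genes in colour, by ring or subunit type. The gene rpt-6 is both the dimmest member and the one with the highest ratio, 0.88.

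Across the 33 members, the fitted ratio had a Pearson correlation of -0.45 with mean brightness and a Spearman correlation of 0.06, and the Pearson value was -0.02 without rpt-6. These are correlations across genes of the same 6 arrays, and genes are not independent replicates.

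The core and the regulatory particle were compared on each array by the difference of their median log2 ratios. Core minus regulatory was 0.15, -0.06 and -0.00 (rounded) on CPF in Cy3 replicates 1, 2 and 3, and 0.15, 0.08 and -0.15 on CPF in Cy5 replicates 1, 2 and 3. Both signs occurred in each orientation. The difference of the fitted medians was 0.05. Differences on single arrays had an SD of 0.12, which is their spread and not the error of the fitted difference. The fitted medians were 0.07 for the 14 core genes and 0.02 for the 19 regulatory genes. The order of the particles therefore differed between arrays, and no direction can be given.

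**Figure D4:**
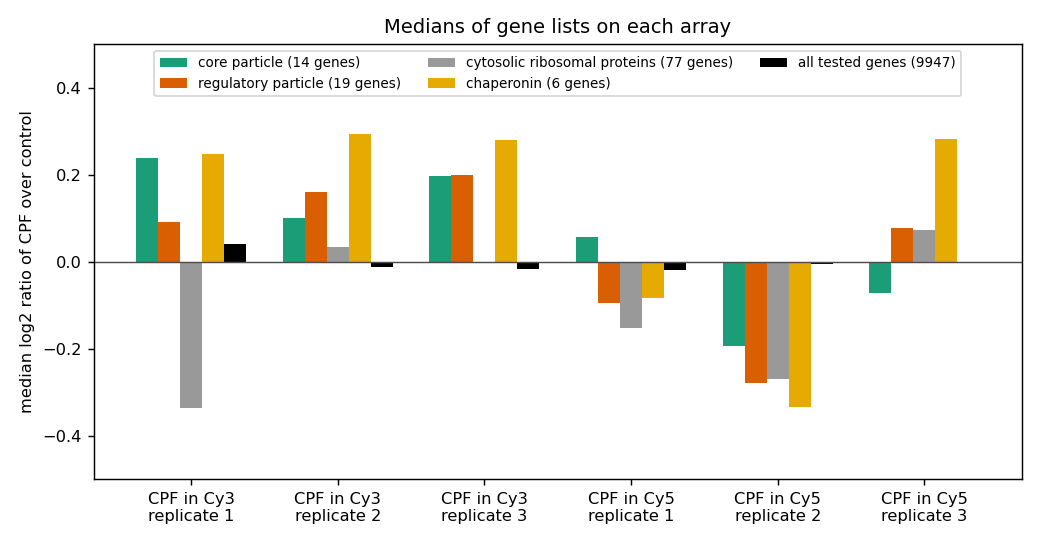
Median log2 ratio of CPF over control (y axis) of the core particle, the regulatory particle, cytosolic ribosomal protein genes, chaperonin genes and all tested genes on each of the 6 arrays. Bars start at 0, 69 of the 77 ribosomal probes had saturated pixels, and both proteasome particles lie above 0 on the CPF in Cy3 arrays and below 0 on CPF in Cy5 replicate 2.

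The members were also compared by array. The median log2 ratio of the 33 genes was 0.19, 0.14 and 0.20 on CPF in Cy3 replicates 1, 2 and 3, and -0.02, -0.22 and 0.03 on CPF in Cy5 replicates 1, 2 and 3. In the same order, 22, 27 and 28 of the 33 genes were above 0 on the CPF in Cy3 arrays and 16, 9 and 18 on the CPF in Cy5 arrays. The median of all tested genes stayed between -0.02 and 0.04 on each array. CPF in Cy5 replicate 2 held the lowest of the 6 values for 16 of the 33 members, a larger share than the 15.4% of all tested genes.

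By gene, the mean of the CPF in Cy3 arrays exceeded that of the CPF in Cy5 arrays for 26 of 33 members (78.8%), against 51.1% of all tested genes. The median of the gene means was 0.16 on CPF in Cy3 arrays and -0.08 on CPF in Cy5 arrays. For 9 members (pas-3, pbs-1, pbs-5, pbs-6, pbs-7, rpt-2, rpt-3, rpt-6 and rpn-11) all CPF in Cy3 values lay above all CPF in Cy5 values, and the reverse held for 0. Over all tested genes these patterns held for 9.47% and 7.51%. By the difference of the orientation means, rpn-11 came next after rpt-6 among these 9. It had 0.31, 0.16 and 0.45 on CPF in Cy3 replicates 1, 2 and 3 and -0.33, -0.46 and -0.02 on CPF in Cy5 replicates 1, 2 and 3.

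The dye term tests the difference between orientations for each gene. It was called for 0 of the 33 members (adjusted p from 0.477 to 0.972 in limma), for 2 at an unadjusted p of 0.05 (rpt-6 and rpn-11), and for 1 gene (0.0101%) and 9.33% of all tested genes at these thresholds. By the scan times in the file headers the CPF in Cy3 arrays were scanned first, as 1 to 3 of 6, and the CPF in Cy5 arrays after them. Dye orientation, the order of scanning and the animals cannot be told apart in this design. The fitted ratios above are means of the orientations.

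**Figure D5:**
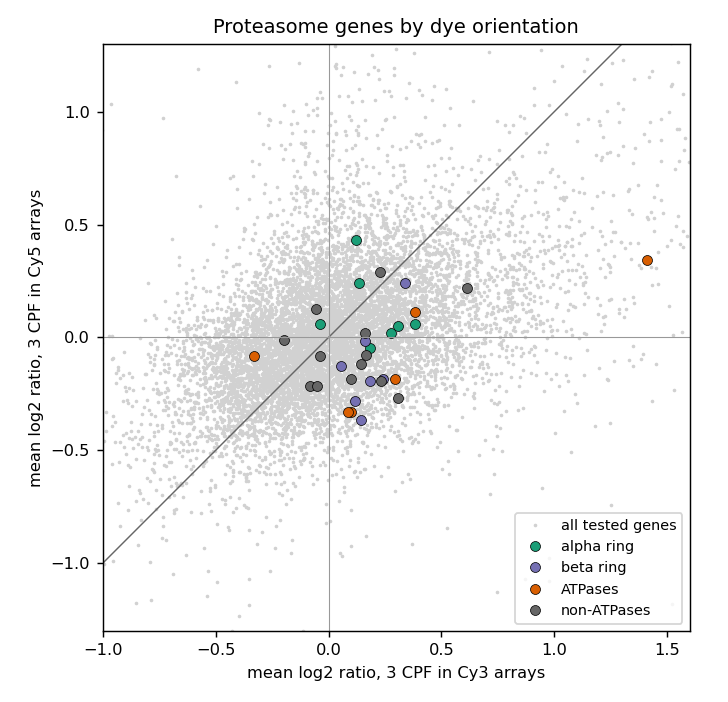
Mean log2 ratio of CPF over control on the 3 CPF in Cy3 arrays (x axis) and on the 3 CPF in Cy5 arrays (y axis) for all tested genes within the axes in grey and the 33 proteasome genes in colour, with the line of equal values. Of the proteasome genes, 26 lie below that line, with rpt-6 farthest to the right.

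Other large complexes of fixed makeup were set beside the proteasome. Of 77 tested genes of cytosolic ribosomal proteins 69 had saturated pixels on at least 1 array, which can compress ratios, against 0 of the 33 proteasome genes and 2.06% of all tested genes. Over all 77, 10 had a fitted log2 ratio above 0, with a median of -0.12 and 0 calls. Over the 8 without saturated pixels, 4 were above 0 and the median was 0.06, so that no direction can be given for the ribosomal genes. Of 6 tested chaperonin genes 4 were above 0, with a median of 0.08, and cct-5, a ring subunit of this folding machine, was called higher at 1.34 ± 0.27 (SE, n = 6, limma adjusted p = 0.0401). Its call was lost without CPF in Cy3 replicate 2 (adjusted p = 0.115) and without CPF in Cy5 replicate 1, 2 or 3 (adjusted p = 0.168, 0.163 and 0.108). The median of the 33 proteasome genes was 0.03, beside 0.01 for all tested genes. By orientation, the median of the chaperonin genes was 0.27 on CPF in Cy3 arrays and -0.04 on CPF in Cy5 arrays. The differences between these lists were not tested.

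The genes around the proteasome were followed in 6 lists, of which 78 of 98 genes were tested and 0 were called in either direction. At an unadjusted p of 0.05, 14 were higher and 4 lower, where all tested genes had 13.2% higher and 12.2% lower. Among 4 genes of ubiquitin and of activating enzymes, ubq-2, which codes for ubiquitin fused to a ribosomal protein, had the smallest p (limma adjusted p = 0.323). Its fitted log2 ratio was -0.18 ± 0.12 (SE, n = 6), but the probe was saturated, with up to 50.7% of its pixels, so that the size may be compressed, and it was -0.10 without CPF in Cy3 replicate 1. Of 15 conjugating enzyme genes, ubc-9, the SUMO conjugating enzyme, was at 0.51 ± 0.14 (adjusted p = 0.0736) and positive on 6 of 6 arrays. Both missed the threshold with all arrays, and ubc-9 passed it without CPF in Cy3 replicate 3 (0.57, adjusted p = 0.0463).

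Among 21 genes of cullins and their partners, which join ubiquitin to chosen proteins, the RING subunit gene rbx-1 was at 0.74 ± 0.21 (SE, n = 6, limma adjusted p = 0.0844). Of 16 deubiquitinase genes, otub-3 was at 0.51 ± 0.14 (adjusted p = 0.0770), with 3 of 6 control channels above background. Of 13 genes of shuttles and of the CDC-48 segregase, npl-4.1, which codes for a CDC-48 cofactor, was at 0.62 ± 0.17 (adjusted p = 0.0752) with 2 of 6 control channels above background. It met the filter on dim probes with just the 6 channels needed, 4 of them CPF channels. That it was tested at all thus depended on the group in which it was higher, so its ratio and its p give no support. None of the 3 genes was called with all arrays. The mean log2 ratio of otub-3 was 0.95 on CPF in Cy3 arrays and 0.06 on CPF in Cy5 arrays, and that of npl-4.1 was 1.21 on CPF in Cy3 arrays and 0.03 on CPF in Cy5 arrays. Without CPF in Cy3 replicate 3, rbx-1 (limma adjusted p = 0.0195) and otub-3 (adjusted p = 0.0278) passed the test. The gene npl-4.1 also fell under the threshold there, which gives no support for the reason above. When CPF in Cy3 replicate 1 was omitted, rbx-1 passed as well (0.48, adjusted p = 0.0393).

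Of 9 genes listed under proteasome regulation and assembly, sel-1 was at -0.28 ± 0.10 (SE, n = 6, limma adjusted p = 0.130) and negative on 6 of 6 arrays. This gene acts in the degradation of proteins of the endoplasmic reticulum, so the list is wider than the proteasome itself. The gene dss-1, known as a further subunit of the lid, was at 0.46 ± 0.19 (adjusted p = 0.165) and positive on 6 of 6 arrays. It had 1.65 on CPF in Cy3 replicate 1 and 0.09 to 0.34 on the other 5 arrays, and without that array its fitted value was 0.22 (adjusted p = 0.211). Neither passed the test.

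Markers of germ cells lay mostly above 0. Oocyte markers were above 0 for 7 of 7 genes, with a median log2 ratio of 0.42 and 1 gene called (oma-2), and their summed normalised brightness ran from 3658 to 23873 in CPF channels and from 2418 to 16019 in control channels. Germline markers were above 0 for 7 of 8 genes, with a median of 0.24 and gld-1 called, and sums of 26429 to 45044 in CPF and 8500 to 37129 in control. Sperm markers were above 0 for 16 of 17 tested genes of 21, with a median of 0.45, msp-63 and msp-50 called, and sums of 221699 to 561635 in CPF and 76105 to 400537 in control, while msp-10, msp-36, spe-9 and spe-38 were too dim to test. The msp- genes are near-identical copies, so that their probes may share signal. By orientation the sperm median was -0.05 on CPF in Cy3 arrays and 0.86 on CPF in Cy5 arrays, and 12 of the 17 genes had saturated pixels, msp-63 and msp-50 among them.

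Intestine markers were above 0 for 1 of 7 genes, with a median of -0.26, cpr-1 called lower, and sums of normalised brightness from 58284 to 91260.5 in CPF and 89173 to 108526 in control. Neuron markers were above 0 for 2 of 7 tested genes, with a median of -0.35, 0 calls, and sums of 10895 to 17095 in CPF and 13023 to 23564 in control. Cuticle markers were above 0 for 5 of 7 genes, with a median of 0.30 (0.59 on CPF in Cy3 arrays and 0.01 on CPF in Cy5 arrays), 0 calls, and sums of 43286 to 60450.5 in CPF and 37862 to 53982 in control. Pharynx markers were above 0 for 4 of 5 genes, with a median of 0.07, tnt-4 called higher, and sums of 2946 to 11204 in CPF and 3305 to 8258 in control. Body wall muscle markers were above 0 for 4 of 6 genes, with a median of 0.05, 0 calls, and sums of 33949 to 71497 in CPF and 38572 to 68359 in control. Saturated pixels were found in 2 of 7 intestine genes, cpr-1 (up to 6.8% of pixels) and asp-1 (up to 48%). They were also found in 1 gene each of the germline, cuticle and body wall muscle lists. The sums and ratios that hold these genes may be compressed. The part of the marker lists in the proteasome values was not tested.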

How the data were processed

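RNA of whole nematodes was hybridised to 6 arrays of printed oligonucleotides, with CPF and control in separate dyes. Per the file headers, the authors read spots in ScanArray Express. The deposited intensity of spot and local background (Cy3 in the first channel, Cy5 in the second) was not background-subtracted or normalised. The deposited percent of saturated pixels comes from the same software. The deposited log2 ratios came from the authors' limma run (version 3.2.3) with loess and Aquantile and served as an alternative only. Each column was assigned to the array it correlated with (0.986 to 0.987, or -0.971 to -0.991).

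Of 22490 gene probes, 21382 were named from sequence names and 31 from platform gene numbers, through a gene table of assembly WBcel235. No build is named in the sources used here, so no coordinates are given, and no sequences were analysed here. Spots that hold no gene (742) were left out. Mean intensity was corrected with normexp (offset 50) and normalised by loess within and Aquantile between arrays. For a test, a probe's median had to exceed local background by 2 SDs of that background in 6 or more of the 12 channels (11033 probes passed). Signal over background takes the place of depth. The brightest probe stood for a gene.

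Log2 ratios of CPF over control were fitted per probe in limma 3.58.1 (R 4.3.3; lmFit, eBayes, moderated, 2-sided) with a CPF and a dye term, adjusted by Benjamini-Hochberg over all tested probes, threshold 0.05. Errors of fitted values are moderated SEs. The study's model, a toxicant term per gene, was read as a fit of single channels. Since both channels share a spot, it was kept as an alternative only, with the moderated test and adjusted threshold used here. The procedure was tested on simulated data. Replicates are separate cultures by the methods. Replicate numbers recur in both orientations, but deviations of same-numbered arrays correlated at 0.103, -0.0788 and 0.271, so pairing is not shown. Values of every array are given for called members and for the highest and lowest member of each of the 4 subgroups, while other lists give fitted values of called genes or, with none, of the gene with the smallest p. The array values of rpn-11 and all values of dss-1 were added after their values were seen. Members, lists and tests were chosen with earlier results of these data known. Plots were made in Python 3.11.15 (matplotlib 3.10.9).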

Additional observations from a re-analysis of the deposited data

Results flagged for a closer look

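The log2 ratio of rpn-8 on CPF in Cy3 replicate 1 was 1.41, far from the other 5 arrays, where it ran from 0.08 to 0.42. The gap to the nearest array was 0.741 of the whole range, above Dixon's critical value for 6 values. The second isoform b probe of rpn-2 had 2.04 on the same array, against -0.02 to 0.61 on the other 5, with a gap of 0.692 of the range. Chance alone marks about 1 in 20 groups of values, and 9.29% of all tested genes stood out in this way, 73.9% of them for CPF in Cy3 replicate 1. Among the 33 member genes, 1 (rpn-8) stood out.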

How the results depend on the processing

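In all, 24 alternatives were run. The count of 1 proteasome gene called higher held in 11 of them. It was 0 with plain background subtraction, with median centring and with probes above background in all 12 channels (where rpt-6 was not tested). It was also 0 without the dye term, with the single channel model, and on the CPF in Cy5 or the CPF in Cy3 arrays alone. It was 6 with array weights and 2 with robust regression, and ran from 0 to 1 when 1 array was left out. Of the settings with a count of 0, calls over all tested genes are given below for median centring alone. A count of 0 without that share is no result about the proteasome genes. The count of 0 called lower was 1 with array weights (pbs-6). Array weights called 2211 genes higher and 2127 lower in all, against 96 and 233 of all tested genes here. The adjusted p of rpt-6 ranged from 7.45e-06 (array weights) to 1.00 (single channel model) over the alternatives in which it was tested. Apart from rpt-6, 6 members (pas-2, pas-5, pbs-4, pbs-6, rpn-6.2 and rpt-4) were called with array weights, of which pas-5 was also called with robust regression.

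The median log2 ratio of the proteasome genes stayed between -0.08 (CPF in Cy5 arrays alone) and 0.16 (CPF in Cy3 arrays alone), and core minus regulatory between -0.00 (rounded; CPF in Cy3 replicate 1 left out) and 0.13 (CPF in Cy5 replicate 3 left out). These moved by less than the SD over arrays (0.16 and 0.12), but that SD includes the difference between orientations and is a wide limit. The proteasome median still had opposite signs on the CPF in Cy5 and the CPF in Cy3 arrays alone. Median centring moved the median of all tested genes to 0.10, and that of the proteasome genes to 0.10. Over all tested genes, scale normalisation called 519 genes higher and 495 lower, median centring 3 and 50, robust regression 575 and 672, and the deposited ratios gave 267 and 333. Aquantile leaves the ratios as they are, so omitting it changed nothing. With the replicate number as a block (replicate block), 1 proteasome gene was called higher (rpt-6, adjusted p = 0.0284) and 0 lower, with 144 genes higher and 232 lower in all.

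Signal over background limits rpt-6, of which 4 of 12 channels were not above background, and the number of arrays limits every interval. Chosen after seeing the data, the median of ribosomal genes was 0.06 over probes without saturated pixels, against -0.12 over all, and 8 genes outside the proteasome were refitted with each array left out.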
